A study of Mus musculus with 9 samples.

Results

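Interferon regulatory factors are transcription factors that share a DNA-binding domain, and 3 of their genes, Irf1, Irf8 and Irf9, are described here from a sample table of 2889 genes deposited for mouse T cells. They were found by symbol, as Irf followed by 1 digit. The cells were CD3+ T cells of WT C57BL/6 mice, isolated from spleen by negative selection. Cells of the same 3 mice were kept for 4 h in adipocyte conditioned medium, in stromal cell conditioned medium or in unconditioned medium, 1 RNA-seq library per mouse and medium, 9 libraries in all. The cells that conditioned the media, and the animals that gave them, are described no further in the labels. The title of the series places the comparison in a study of how the surroundings of a T cell tune its function through the cytoskeleton.

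In T cells these factors act at several points of interferon signalling. Interferon gamma acts through JAK kinases and STAT factors, which bind GAS elements and induce Irf1. IRF1 in turn drives genes of antigen processing, guanylate binding proteins and PD-L1. Type I interferon assembles STAT factors and IRF9 into the complex ISGF3, which binds ISRE elements in antiviral genes. IRF8 is best known from B cells, macrophages and dendritic cells, where it works with partners such as PU.1, and it is also induced in activated T cells.

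All 3 genes were tested, and all came from a table that holds only genes the authors had listed as changed in at least 1 of their comparisons. Of the 2889 genes, 2641 were in the authors' adipocyte table, 493 in their stromal table and 245 in both. Irf1 and Irf8 were in both of those tables, and Irf9 in the stromal table alone. A difference of these genes from unconditioned medium is therefore not independent of the selection, and adipocyte against stromal medium is the comparison that the authors' tables used here do not cover. The libraries held 6522742 to 13758643 reads on the listed genes, which is a part of their depth. Values are normalized counts, that is, reads divided by the authors' size factor of the library. The labelled cell type was checked on its markers: Cd3e, a chain of the T-cell receptor complex, averaged 15627 ± 715 normalized counts in adipocyte, 23434 ± 984 in stromal and 35658 ± 1434 in unconditioned medium (SD, n = 3 mice each). The 5 of 20 T cell markers in the table summed to between 39069 and 42086 in adipocyte, 82488 and 83851 in stromal and 98628 and 110847 in unconditioned medium. All 5 were in the authors' adipocyte table. Their fall also depends on how the libraries are scaled. In adipocyte against unconditioned medium the log2 fold change of Cd3e was -1.19 under the authors' scaling, and that of Cd27 -0.87. Under another scaling, the median of ratios over the listed genes, they were -0.26 and 0.06, and 4 of the 5 markers still passed as lower. In bulk samples, fewer cells of a type and less RNA per cell cannot be told apart.

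Promoter sequence was matched for all 3 genes from RefSeq (build GRCm38.p6, plus strand), and is shown because the genes are themselves known targets of interferon signalling. Each run is the 250 bases before the first listed transcription start, and the capitals mark matches to the GAS letters TTCNNNGAA or to the NF-kB motif.
Irf1, chr11:53769764-53770013: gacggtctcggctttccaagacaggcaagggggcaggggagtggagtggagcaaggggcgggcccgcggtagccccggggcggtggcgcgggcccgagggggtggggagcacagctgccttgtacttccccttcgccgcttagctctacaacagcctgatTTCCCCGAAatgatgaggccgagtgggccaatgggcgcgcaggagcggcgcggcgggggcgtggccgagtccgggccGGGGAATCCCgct
Irf8, chr8:120736108-120736357: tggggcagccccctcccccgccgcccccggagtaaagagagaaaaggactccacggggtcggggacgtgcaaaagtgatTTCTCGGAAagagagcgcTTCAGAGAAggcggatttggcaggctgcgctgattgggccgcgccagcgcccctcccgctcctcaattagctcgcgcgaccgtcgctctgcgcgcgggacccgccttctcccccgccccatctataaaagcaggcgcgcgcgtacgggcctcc
Irf9, chr14:55603735-55603984: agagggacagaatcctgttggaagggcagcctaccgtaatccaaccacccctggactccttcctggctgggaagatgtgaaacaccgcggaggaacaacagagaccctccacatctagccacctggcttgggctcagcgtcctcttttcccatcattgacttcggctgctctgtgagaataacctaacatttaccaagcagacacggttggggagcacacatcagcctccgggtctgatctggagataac
The Irf1 promoter held 1 GAS match, TTCCCCGAA, 90 to 82 bases before the start, and 1 NF-kB match, GGGGAATCCC, 13 to 4 bases before it. The Irf8 promoter held 2 GAS matches, TTCTCGGAA at 171 to 163 bases and TTCAGAGAA at 153 to 145 bases before the start. No match to the 4 motifs searched, GAS, NF-kB, the ISRE core (GAAA, any 2 bases, GAAA) and the AP-1 motif TGANTCA, was found in the Irf9 window on either strand. Of 32851 promoters of this length, 7.02% held a GAS match, 2.98% an ISRE core, 3.9% an NF-kB match and 6.75% an AP-1 match. A second listed start of each of the 3 genes had no match. The matches describe letters and not bound sites.

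Irf1, the factor induced by interferon gamma, was the most abundant of the 3 genes and was higher in both conditioned media than in unconditioned medium. In adipocyte medium mice 1, 2 and 3 had 54176, 52652 and 37505 normalized counts. In stromal medium they had 44975, 37867 and 41539, and in unconditioned medium 17375, 17512 and 16388. All libraries of either conditioned medium lay above all libraries of unconditioned medium, while adipocyte and stromal medium overlapped, mouse 3 having the lowest adipocyte value. The means were 48111 ± 9217 in adipocyte, 41460 ± 3555 in stromal and 17092 ± 613 in unconditioned medium (SD, n = 3 mice each).

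Against unconditioned medium, Irf1 rose in adipocyte medium by a log2 fold change of 1.47 (SE 0.13, 95% interval 1.19 to 1.76, limma adjusted p = 2.94e-07), and mice 1 to 3 had ratios of 3.12, 3.01 and 2.29. It rose in stromal medium by 1.28 (SE 0.13, 95% interval 0.99 to 1.56, limma adjusted p = 6.24e-06), with ratios of 2.59, 2.16 and 2.53. Adipocyte against stromal medium gave 0.20 (SE 0.13, 95% interval -0.08 to 0.48, limma adjusted p = 0.162), so the data allow no difference and also one of 0.48. Mice 1 and 2 had more Irf1 in adipocyte medium, with ratios of 1.20 and 1.39, and mouse 3 had less, with 0.903. Without the adipocyte library of mouse 3 the difference was 0.37 and passed the threshold (limma adjusted p = 0.00371). In the authors' deposited table the log2 fold change of Irf1 was 1.48 in adipocyte medium, with an adjusted p of 1.07e-16 for a change beyond 1.5-fold.

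Irf9, the DNA-binding part of ISGF3, was higher in both conditioned media than in unconditioned medium, and lower in adipocyte than in stromal medium under the authors' scaling, a direction that turned under the median of ratios. In adipocyte medium mice 1, 2 and 3 had 10929, 10245 and 8925 normalized counts. In stromal medium they had 13577, 12900 and 12715, and in unconditioned medium 7194, 7676 and 6945. The 3 media did not overlap at any point, with stromal medium highest, adipocyte medium between and unconditioned medium lowest. Irf9 rose by 0.46 in adipocyte against unconditioned medium (SE 0.09, limma adjusted p = 1.96e-04) and by 0.85 in stromal against unconditioned medium (SE 0.09, limma adjusted p = 6.17e-06). In adipocyte against stromal medium the log2 fold change was -0.39 (SE 0.09, 95% interval -0.57 to -0.20, limma adjusted p = 9.96e-04), and the mice had ratios of 0.805, 0.794 and 0.702. In the authors' deposited table Irf9 ranked 600 of 602 genes of the stromal comparison, with an adjusted p of 0.0497 for a change beyond 1.5-fold.

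Irf8, the factor of B cells and myeloid cells, also rose in both conditioned media, and was lower in adipocyte than in stromal medium under the authors' scaling but not under the median of ratios. In adipocyte medium mice 1, 2 and 3 had 2361, 2396 and 2054 normalized counts. In stromal medium they had 3565, 2533 and 2721, and in unconditioned medium 1104, 1126 and 1172. Unconditioned libraries lay below all others, and the highest adipocyte library lay 137 normalized counts below the lowest stromal one. The log2 fold change was 1.00 in adipocyte against unconditioned medium (SE 0.12, limma adjusted p = 3.78e-06) and 1.36 in stromal against unconditioned medium (SE 0.12, limma adjusted p = 2.55e-06). Between the conditioned media, adipocyte over stromal, it was -0.36 (SE 0.12, 95% interval -0.62 to -0.10, limma adjusted p = 0.0124), with ratios of 0.662, 0.946 and 0.755 in mice 1 to 3. Without the stromal library of mouse 1 that difference was -0.21 and no longer passed (limma adjusted p = 0.0606). It did not pass either without mouse 1 (-0.24, limma adjusted p = 0.0809) or without mouse 3 (-0.34, limma adjusted p = 0.0646).

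**Figure D1:**
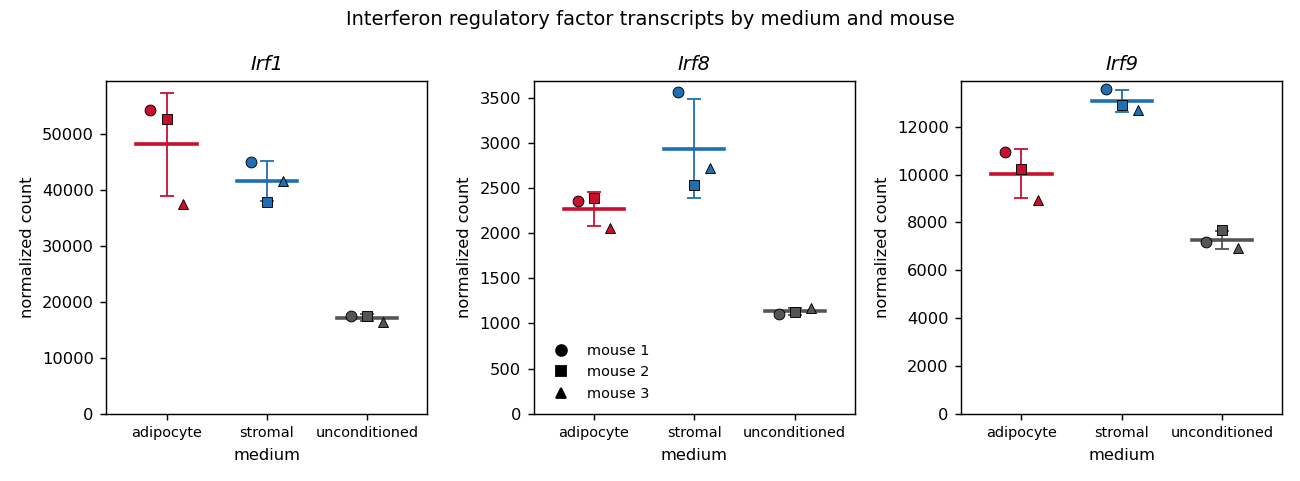
Normalized counts (y axis, from 0) of Irf1, Irf8 and Irf9 in adipocyte, stromal and unconditioned medium, 1 point per mouse, with the mean and SD over 3 mice. Irf1 sits at 37505 or more in every conditioned library and at 17512 or less in every unconditioned one, and Irf8 and Irf9 are also lowest in unconditioned medium.

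Reads were not limiting for any member. Irf1 had 12165 to 58503 reads per library, Irf9 5037 to 19558 and Irf8 773 to 4271. Counting error was at most 3.60% of a value, for Irf8, and since reads are not independent molecules this covers counting error only. Per kilobase of exon, on the scale of levels, Irf1 had 12100 normalized counts in adipocyte, 10428 in stromal and 4299 in unconditioned medium, and Irf9 had 1863, 2426 and 1350 in the same media. Irf8 had 322, 417 and 161 per kilobase. The order of levels was thus Irf1, Irf9 and Irf8 in every medium. Exons of Irf1 overlap those of an antisense gene over 135 bases and those of Irf9 the gene Rnf31 over 123 bases, so a part of their reads could be shared, and the sources used here do not give the strand setting of the counting.

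The members' calls say little by themselves, because most listed genes passed the same test. In adipocyte against unconditioned medium all 3 members passed, all higher, where 97.2% of the 2868 tested genes passed, 33.8% higher and 63.4% lower. In stromal against unconditioned medium all 3 passed as well, again all higher, where 57.7% of all tested genes passed, 21.1% higher and 36.6% lower. In adipocyte against stromal medium 2 members passed, Irf8 and Irf9, both lower, where 91% of all tested genes passed, 33.8% higher and 57.2% lower. The groups did not overlap for all 3 members in adipocyte against unconditioned medium (97% of all tested genes), for all 3 in stromal against unconditioned medium (69.4%) and for 2 in adipocyte against stromal medium (89.6%).

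A test against a 1.5-fold change, added after the data were seen, is nearer to what the authors tested. It called Irf1 and Irf8 in adipocyte against unconditioned medium, where 92.9% of all tested genes passed. It called all 3 members in stromal against unconditioned medium, where 18.7% passed, although this is the comparison for which all 3 had been listed by the authors. It called 0 members in adipocyte against stromal medium (limma, and 0 at an unadjusted p under 0.05), where 59% of all tested genes passed, and 2 members had passed limma's test against no change. Among 2868 genes ordered from highest, Irf1 ranked 370, Irf8 693 and Irf9 960 in adipocyte against unconditioned medium, and they ranked 172, 147 and 281 in stromal against unconditioned medium.

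The fold changes depend on how the libraries are scaled. Under the authors' scaling the median log2 fold change of all tested genes was -1.03 for adipocyte and -0.17 for stromal medium, each against unconditioned medium, and -0.60 between the conditioned media. Scaling by the median of ratios over the listed genes moved these medians by 0.93, 0.36 and 0.57, and TMM over the listed genes moved them by 0.46, 0.14 and 0.32. Irf1, Irf8 and Irf9 stayed higher in each conditioned medium than in unconditioned medium under all 3 scalings. In adipocyte against stromal medium Irf8 and Irf9 were lower under the authors' scaling, at -0.042 and -0.067 without passing under TMM (limma adjusted p = 0.735 and 0.473), and higher by 0.21 and 0.18 without passing under the median of ratios (limma adjusted p = 0.111 and 0.0836). Irf1 in that comparison was 0.52 under TMM (limma adjusted p = 0.00292) and 0.77 under the median of ratios (limma adjusted p = 2.67e-04), both past the threshold that it missed under the authors' scaling.

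**Figure D2:**
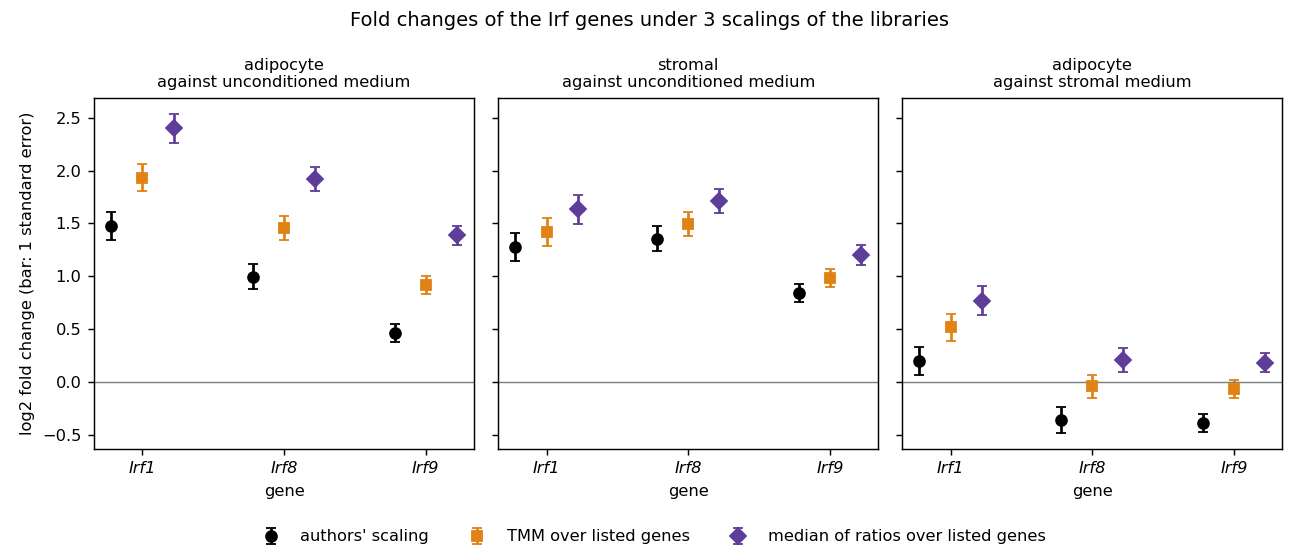
Log2 fold changes (y axis, bars 1 standard error) of the 3 genes in each comparison under the authors' scaling, TMM and the median of ratios over the listed genes. Irf1, Irf8 and Irf9 lie above 0 in both comparisons with unconditioned medium under each scaling, whereas Irf8 and Irf9 change sign in adipocyte against stromal medium.

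Ratios of reads within a library do not depend on any scaling, and they set the members apart. The ratio of Irf1 to Irf9 reads was 4.96, 5.14 and 4.20 in adipocyte medium (mice 1 to 3), 3.31, 2.94 and 3.27 in stromal medium and 2.42, 2.28 and 2.36 in unconditioned medium. The 3 media did not overlap, so per read of Irf9 the cells held most Irf1 in adipocyte medium, less in stromal medium and least in unconditioned medium. The ratio of Irf1 to Irf8 averaged 21.1 ± 2.5 in adipocyte, 14.3 ± 1.4 in stromal and 15.1 ± 0.96 in unconditioned medium, and the adipocyte libraries lay above all others while stromal and unconditioned medium overlapped. The ratio of Irf8 to Irf9 averaged 0.227 ± 0.0094 in adipocyte, 0.224 ± 0.034 in stromal and 0.156 ± 0.011 in unconditioned medium, with adipocyte and stromal medium overlapping and both above unconditioned medium (SD, n = 3 mice each throughout). The smallest p that exact permutation of 3 libraries against 3 allows is 0.1 even with the libraries taken as unpaired, and these ratios are given by their spread.

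**Figure D3:**
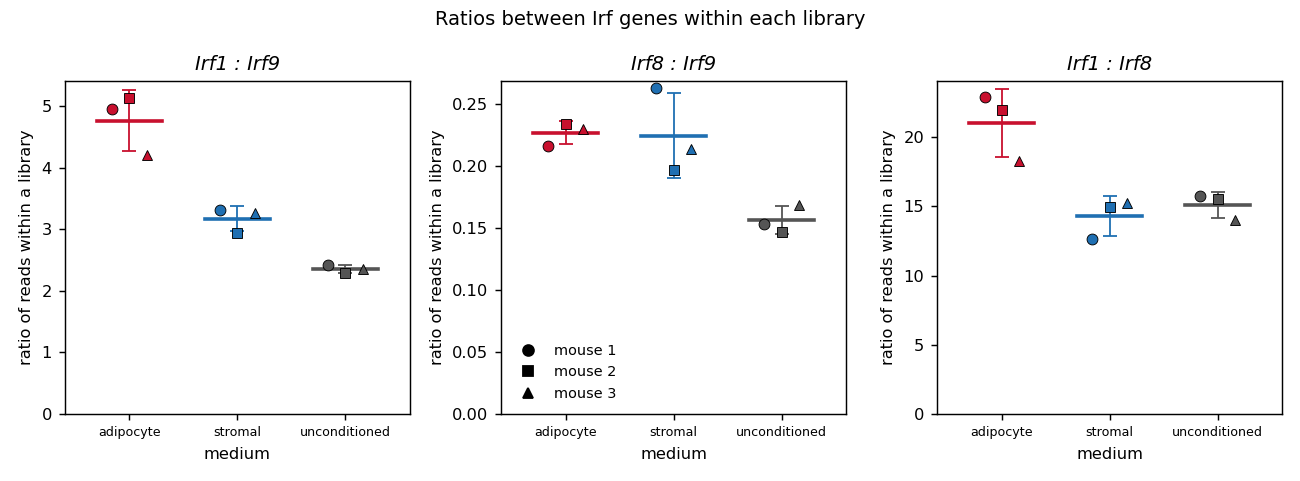
Ratios of reads between 2 Irf genes within a library (y axes, from 0) in adipocyte, stromal and unconditioned medium, 1 point per mouse with mean and SD. The Irf1 to Irf9 ratio steps down over the 3 media, 4.77, 3.17 and 2.35 on average, while the Irf8 to Irf9 ratio overlaps between the conditioned media, 0.227 and 0.224 on average, and is 0.156 in unconditioned medium.

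Over the 9 libraries Irf8 and Irf9 had a Pearson correlation of 0.95 on the log2 scale, Irf1 and Irf8 of 0.91 and Irf1 and Irf9 of 0.83. These values describe 3 media with 3 mice each and rest on the differences between the media. Of 2445 genes compared, those most like Irf1 were Cd274, which encodes PD-L1 (0.994), Csrp2 (0.988) and Vcl, which encodes the cytoskeletal linker vinculin (0.988). Those most like Irf8 were Hmgn5 (0.989), Tnfrsf23 (0.988) and Tgtp1, an interferon-induced GTPase (0.986). Those most like Irf9 were Olfr56 (0.995), Prmt1 (0.992) and Irgm1, another interferon-induced GTPase (0.990). Exons of Olfr56 overlap those of Ifi47, a gene of the interferon gamma list, on the same strand over 2.4% of the exonic bases of Olfr56. Tgtp1 shares 7.0% of its exonic bases with Gm12185 on the same strand. On the opposite strand Vcl shares 25.5% with Ap3m1 and Cd274 14.1% with AC119228.1. Other genes named in this report also overlap a neighbour, among them Cebpb (20.7%, opposite strand), Csf1r (15.1%, opposite strand) and Rtp4 (13.9%, same strand). A part of the reads of these genes could therefore be shared.

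The authors' deposited clusters divided the members. Irf1 was in cluster 1 of 920 genes, with median log2 fold changes of 1.29 in adipocyte and 0.30 in stromal against unconditioned medium. Its own 1.28 in stromal against unconditioned medium ranked 86 from the highest in that cluster, and its 0.20 in adipocyte against stromal medium ranked 875, near the lowest. Irf8 and Irf9 were in cluster 4 of 132 genes, with medians of 0.27 in adipocyte and 1.54 in stromal against unconditioned medium and -1.43 in adipocyte against stromal medium. Between the conditioned media Irf8 and Irf9 ranked 2 and 3 from the highest of that cluster, so theirs were among the least negative differences of that cluster.

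Upstream of the members, Ifng, the gene of interferon gamma itself, averaged 1809 ± 273 normalized counts in adipocyte, 354 ± 30.6 in stromal and 116 ± 17.7 in unconditioned medium (SD, n = 3 mice each). It rose by 3.95 in adipocyte and by 1.61 in stromal against unconditioned medium, and was higher by 2.34 in adipocyte than in stromal medium (limma adjusted p = 3.04e-09, 4.62e-06 and 8.43e-08). Ifngr2, a chain of its receptor, rose by 1.05 in adipocyte medium and was at -0.16 in stromal against unconditioned medium (limma adjusted p = 0.221). These were the only 2 of 10 listed ligands and receptors in the sample table. Exons of Ifng overlap those of Gm49751 on the same strand over 25.9% of the exonic bases of Ifng, so a part of its reads could be shared.

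Stat2, a partner of IRF9 in ISGF3, averaged 4565 ± 1201 normalized counts in adipocyte, 9674 ± 989 in stromal and 3916 ± 192 in unconditioned medium (SD, n = 3 mice each). It was at 0.18 in adipocyte against unconditioned medium (limma adjusted p = 0.284), rose by 1.30 in stromal against unconditioned medium (limma adjusted p = 2.89e-05) and was lower by 1.12 on the log2 scale in adipocyte than in stromal medium (limma adjusted p = 3.33e-05). With TMM it passed as higher in adipocyte against unconditioned medium, at 0.64, and it stayed lower in adipocyte than in stromal medium under all 3 scalings. Tyk2, a kinase of the type I receptor and the other gene of this group in the table, fell by 1.56 in adipocyte and by 0.70 in stromal against unconditioned medium.

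Of 8 brakes on interferon signalling, 4 were in the sample table. In adipocyte medium 3 of them rose and in stromal medium all 4, each against unconditioned medium, with medians of 0.88 and 1.26, beside 33.8% and 21.1% of all tested genes higher in the same comparisons. Socs1, which blocks JAK kinases, was at 0.16 in adipocyte medium (limma adjusted p = 0.167) and rose by 1.97 in stromal medium. In adipocyte medium it passed as higher with TMM, at 0.62, and with the median of ratios, at 1.09 (limma adjusted p = 1.67e-04 and 2.52e-06). Cish and Socs3 had the opposite order, with 1.48 and 1.17 in adipocyte against 0.76 and 0.88 in stromal medium, each relative to unconditioned medium. Of 26 sensors, adaptors and kinases upstream of IRF3, IRF5 and IRF7, 5 were in the table, and 1 rose and 4 fell in adipocyte against unconditioned medium, where 63.4% of all tested genes fell. Of the 4, Zbp1 lay above 0 under TMM (0.15) and the median of ratios (0.62). Irak2, a kinase of Toll-like receptor signalling, rose by 1.31 there, and Unc93b1, a transport protein of such receptors, and Mavs, an adaptor of RNA sensors, fell by 1.26 and 1.19 on the log2 scale.

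Of 17 partners and corepressors that act with IRF factors 4 were in the table. In adipocyte against unconditioned medium 3 rose and 1, Spi1, fell, beside 33.8% of all tested genes higher and 63.4% lower. In adipocyte against stromal medium the same 3 were higher and Spi1 lower, by 2.14 on the log2 scale, beside 33.8% higher and 57.2% lower over all tested genes. Batf rose by 1.62, Jun by 2.55 and Junb by 2.36 in adipocyte against unconditioned medium. In stromal against unconditioned medium Batf was at 0.26 (limma adjusted p = 0.0528), and it passed as higher with TMM, at 0.40, and with the median of ratios, at 0.61 (limma adjusted p = 0.00700 and 8.08e-04). Jun and Junb rose there by 0.40 and 0.63. Spi1, which encodes PU.1 and marks myeloid and B cells, fell by 1.53 in adipocyte against unconditioned medium and was at 0.60 in stromal against unconditioned medium (limma adjusted p = 0.0501), where it passed as higher with TMM, at 0.74, and with the median of ratios, at 0.96 (limma adjusted p = 0.0219 and 0.00454).

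Targets of interferon gamma and IRF1 were higher in stromal medium. Of 45 listed genes 24 were tested, 12 of them in the authors' adipocyte table and 21 in their stromal table, so the list was itself weighted to stromal medium by the selection. In adipocyte against unconditioned medium 14 rose, 2 fell and 8 did not pass, with a median of 1.17 against -1.03 for all genes, and under the median of ratios 22 were higher and 1 lower. In stromal against unconditioned medium 21 rose, 0 fell and 3 did not pass, with a median of 2.45 against -0.17 for all genes. In adipocyte against stromal medium 2 were higher and 21 lower, and under the median of ratios 3 were higher and 14 lower. Over all tested genes, under the authors' scaling, 33.8% were higher and 57.2% lower in adipocyte against stromal medium. Against unconditioned medium the shares were 33.8% higher and 63.4% lower in adipocyte medium, and 21.1% and 36.6% in stromal medium. Gbp11, a guanylate binding protein gene, averaged 517 ± 216 in adipocyte, 5483 ± 631 in stromal and 190.5 ± 17.1 normalized counts in unconditioned medium. Cd274 averaged 8466 ± 2376 in adipocyte, 7583 ± 1832 in stromal and 1980.1 ± 48.8 in unconditioned medium. As for Irf1, its libraries in both conditioned media lay above those of unconditioned medium and overlapped each other. Gbp and Tgtp genes have near-identical copies, and the sources used here do not say how reads were divided among them.

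Type I interferon genes, the targets of ISGF3, moved in both directions. Of 54 listed genes 15 were tested, and 11 listed genes were in the authors' adipocyte table and 6 in their stromal table. In adipocyte against unconditioned medium 4 rose and 10 fell, with a median of -0.99, close to the -1.03 of all tested genes, 63.4% of which were lower, although 5 were higher and 4 lower when scaled by the median of ratios. In stromal against unconditioned medium 9 rose and 5 fell, with a median of 0.65 against -0.17 for all tested genes, of which 21.1% were higher and 36.6% lower. There 9 were higher and 2 lower with TMM, and 10 higher and 2 lower with the median of ratios. In adipocyte against stromal medium 2 were higher and 12 lower, beside 33.8% higher and 57.2% lower over all tested genes. Under the median of ratios 2 were higher and 7 lower in that comparison. Isg15, a ubiquitin-like antiviral protein gene, averaged 719.9 ± 127 in adipocyte, 874 ± 125 in stromal and 316 ± 18.2 normalized counts in unconditioned medium. Rtp4 averaged 1428 ± 361, 3156 ± 607 and 782 ± 112 in the same media, and Ifit3b 56.4 ± 6.1, 538 ± 248 and 213 ± 23.2.

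IRF4 and BATF targets of T cells, such as cytokine genes, rose in adipocyte medium in all 16 tested of 28 listed, 15 of which were in the authors' adipocyte table and 2 in their stromal table. The list was thus weighted to adipocyte medium by the selection. Over all tested genes 33.8% were higher and 63.4% lower in adipocyte against unconditioned medium. The median was 1.99 in adipocyte and 0.49 in stromal against unconditioned medium. In the stromal comparison 10 rose and 6 did not pass, beside 21.1% higher and 36.6% lower over all tested genes. Il2 averaged 1621 ± 692 in adipocyte, 157 ± 24.3 in stromal and 127 ± 23.3 normalized counts in unconditioned medium, and Gzmb, the gene of a cytotoxic granule protease, 8683 ± 1116, 1548 ± 277 and 624 ± 104. The level of Irf4 itself was not analysed here.

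**Figure D4:**
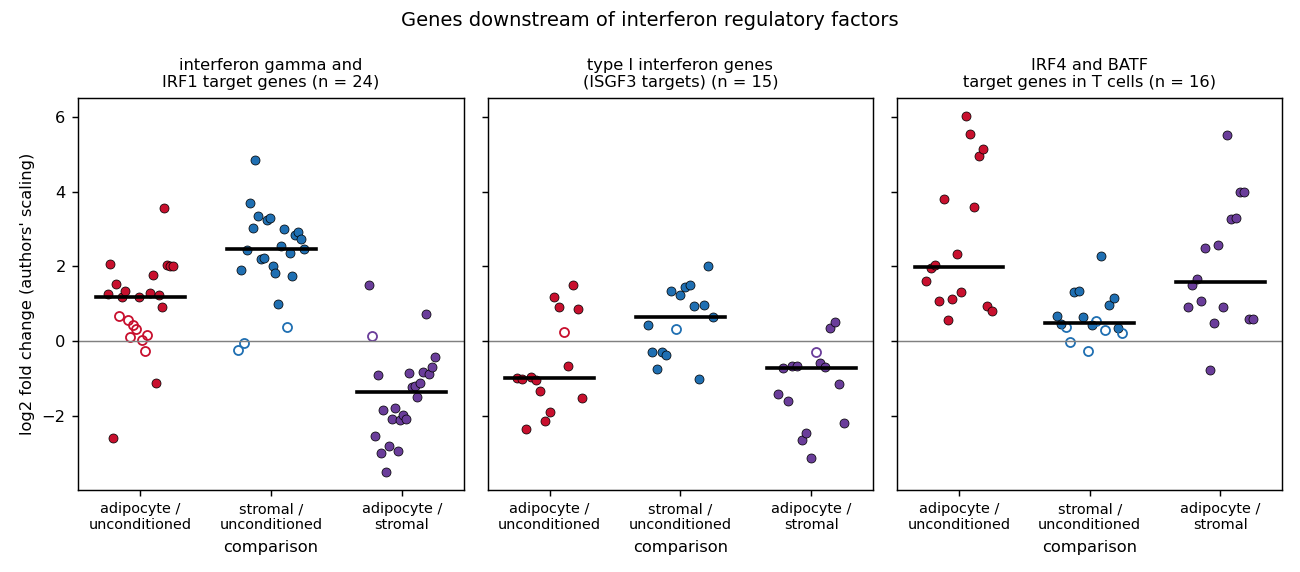
Log2 fold changes (y axis, authors' scaling) of the tested genes of 3 lists in each conditioned medium against unconditioned medium and between the conditioned media, filled where past the threshold, with the list median as a line. Medians of the interferon gamma list are 1.17, 2.45 and -1.37, and those of the IRF4 and BATF list 1.99, 0.49 and 1.57, in the order of the comparisons.

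Irf8 is also a gene of B cells, macrophages and dendritic cells, so their markers are given beside it. Of 22 B cell markers 7 were in the sample table, and their summed normalized counts ran between 557 and 602 in adipocyte, 1679 and 2891 in stromal and 2066 and 2748 in unconditioned medium. Of 26 macrophage and monocyte markers 7 were in the table, with sums between 2737 and 4026 in adipocyte, 5283 and 10374 in stromal and 4325 and 8200 in unconditioned medium. Of 20 dendritic cell markers 9 were in the table, with sums between 2043 and 2349 in adipocyte, 4676 and 4858 in stromal and 4639 and 4983 in unconditioned medium. Cst3, a large part of each of these sums, averaged 1584 ± 126 in adipocyte, 3497 ± 155 in stromal and 3434 ± 194 in unconditioned medium. Its log2 fold change in adipocyte against unconditioned medium was -1.12 under the authors' scaling and -0.19 under the median of ratios. No listed marker was at 0 in all libraries of a medium. Xcr1, a receptor gene of the conventional dendritic cells that need IRF8 to develop, was the 1 of these 9 markers that rose in adipocyte against unconditioned medium, while the other 8 fell, and it averaged 386 ± 71.0 in adipocyte, 331 ± 79.7 in stromal and 132 ± 28.0 normalized counts in unconditioned medium. Csf1r, a macrophage receptor gene, averaged 63.4 ± 24.6, 716 ± 258 and 919.9 ± 265 in the same media, and Cd79a, a chain of the B cell receptor, 168 ± 5.9, 406 ± 118 and 546 ± 77.4. Of the 7 macrophage and monocyte markers 1, Cebpb, rose in adipocyte against unconditioned medium and 5 fell. All 7 B cell markers fell there. Over all tested genes 33.8% were higher and 63.4% lower in that comparison. Under the median of ratios 2 macrophage and monocyte markers were higher and 3 lower. With that scaling 0 B cell markers were higher and 5 lower, and 1 dendritic cell marker was higher and 7 lower. Cebpb, a large part of the adipocyte sum, averaged 2489 ± 499 in adipocyte, 1613 ± 76.9 in stromal and 848 ± 100 in unconditioned medium. Cd14 averaged 171 ± 92.1, 525 ± 237 and 131 ± 53.1 in the same media. Of the listed B cell markers 8 were in the authors' adipocyte table and 0 in their stromal table. The numbers were 6 and 1 for macrophage and monocyte markers, and 9 and 1 for dendritic cell markers. These lists were thus weighted to adipocyte medium by the selection. Irf8 was higher in adipocyte than in unconditioned medium, and under the authors' scaling the sums of all 3 lists were lower. In stromal against unconditioned medium 0 of the 7 B cell markers passed limma's test. Of the 9 dendritic cell markers 1 rose and 2 fell there, and of the 7 macrophage and monocyte markers 2 rose and 2 fell. Over all tested genes 21.1% were higher and 36.6% lower in that comparison. Among the stromal libraries mouse 1 had the highest Irf8 value (3565), B cell sum (2891) and dendritic cell sum (4858), and the lowest macrophage sum (5283). The stromal dendritic cell sums spanned only 4676 to 4858. Mouse 2 had the highest Irf8 value (2396), B cell sum (602) and dendritic cell sum (2349) in adipocyte medium. In unconditioned medium mouse 1 had the highest B cell sum (2748) and the lowest Irf8 value (1104). The part of these cells in the Irf8 values was not tested, and ranks among 3 libraries cannot show it.

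**Figure D5:**
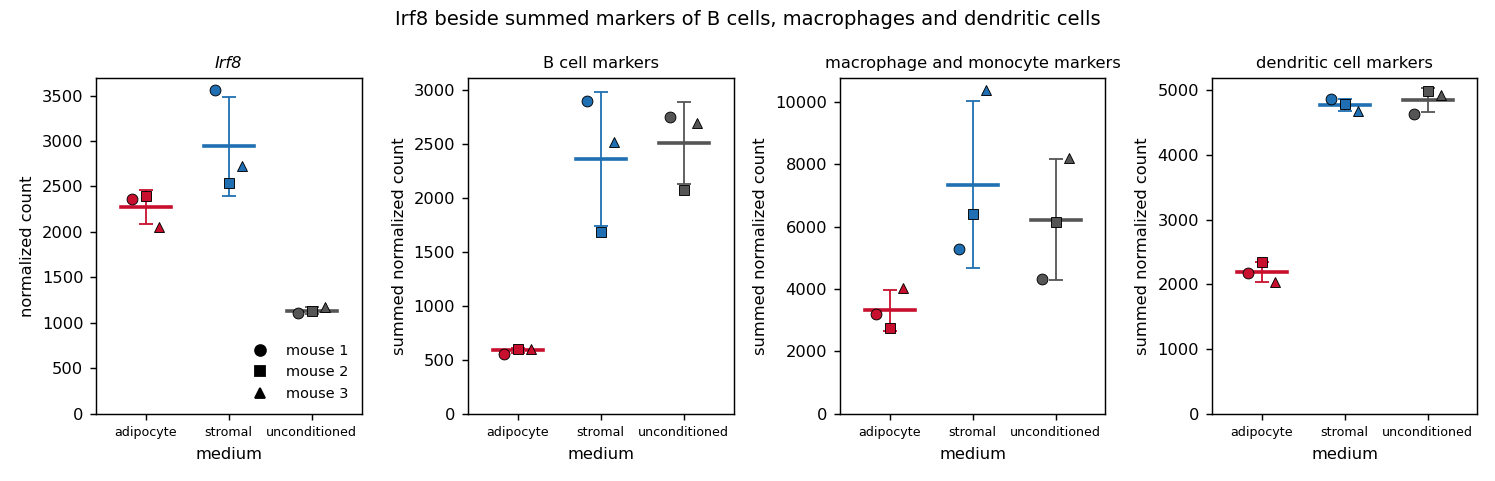
Normalized counts of Irf8 and summed normalized counts of B cell, macrophage and monocyte, and dendritic cell markers (y axes, from 0) in adipocyte, stromal and unconditioned medium, 1 point per mouse with mean and SD. In adipocyte medium Irf8 lies between 2054 and 2396, above all unconditioned libraries. Each marker sum in that medium lies below all unconditioned libraries under the authors' scaling. The sums hold only markers that the authors had listed as changed.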

How the data were processed

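Total RNA of splenic T cells was converted to cDNA with SMART-seq v4 and sequenced from Nextera XT libraries, per the labels' protocols, which gave 3 mice in each of 3 media. The submitters' processing notes list 4 tools, FastQC, Trimmomatic, featureCounts and DESeq2, and, without saying what each was used for, 3 builds, namely GRCm39 and the human GRCh38 and hg38. Not given in the sources used here are aligner, annotation and strandedness of the counting. The sample table the authors deposited holds a normalized signal, the read count of a gene divided by 1 size factor per library: 100% of values were whole multiples of the library's smallest step within 0.001 reads, and reads were recovered from them. Per the file headers, the tables the authors deposited for each conditioned medium give each gene's log2 fold change, standard error, Wald score, p-value and adjusted p-value. The score equals a test against a 1.5-fold change within 0.0006, and 3220 and 602 genes are listed for adipocyte and stromal medium. All 2889 genes of the sample table are in at least 1 of those tables.

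With 1 added to each value and log2 taken, limma-trend (limma 3.58.1, R 4.3.3) was fitted to 2868 genes with a mean of at least 1, all 9 libraries in 1 fit, medium as the only factor, two-sided, Benjamini-Hochberg adjustment over all tested genes and a threshold of 0.05. Fold changes of low genes are understated on this scale. edgeR 4.0.16 and DESeq2 1.42.0 on the recovered reads, other scalings, pseudocounts and filters, left-out libraries and a mouse block were alternatives. Library names give the mouse, so samples of the same number come from the same animal, and deviations of same-mouse libraries from the medium means correlated between -0.12 and 0.26 over 9 pairs. The scripts were tested on simulated data. Promoters and motifs came from RefSeq (GRCm38.p6), and exon lengths from GENCODE.

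A gene that the symbol rule found, and some list genes, are not reported here. Members and lists were chosen with earlier results of these data known. Named genes were the Irf genes, the 3 genes most correlated with each member among those with a mean of at least 100, and up to 4 members per list and comparison with the smallest adjusted p, plus the markers with the highest means.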

Additional observations from a re-analysis of the deposited data

How the results depend on the processing

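Over 25 alternatives per gene and comparison, Irf1, Irf8 and Irf9 stayed higher in both conditioned media than in unconditioned medium, between 1.38 and 2.40 for Irf1, 0.95 and 1.92 for Irf8 and 0.39 and 1.39 for Irf9 in adipocyte medium, and between 1.21 and 1.63, 1.19 and 1.71, and 0.81 and 1.20 in stromal medium. Several results moved with the scaling. In adipocyte against stromal medium the median of ratios gave 0.77 for Irf1, 0.21 for Irf8 and 0.18 for Irf9, with 1 member past the threshold, and the same values with a replicate block, an alternative added after seeing the data. limma with TMM gave 0.52, -0.042 and -0.067 for these 3 results, and edgeR with TMM 0.52, -0.065 and -0.076, each with 1 member past the threshold. The split of calls over all genes moved from 969 higher and 1818 lower to 1078 and 1047 under the median of ratios in adipocyte against unconditioned medium, from 606 and 1049 to 1129 and 561 in stromal against unconditioned medium, and from 968 and 1641 to 1172 and 1091 in adipocyte against stromal medium.

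The test against a 1.5-fold change left 2 members in adipocyte against unconditioned medium and 0 in adipocyte against stromal medium, and, of all genes, 535 in stromal against unconditioned medium and 1693 between the conditioned media. Under it Irf9 at 0.46 in adipocyte against unconditioned medium, and Irf8 at -0.36 and Irf9 at -0.39 in adipocyte against stromal medium, did not pass. Its stricter null explains these by construction.

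With the mouse as a replicate block no member's call changed, and adipocyte against stromal medium gave adjusted p = 0.121 for Irf1 and 0.0122 for Irf8 (limma). Leaving out 1 library or mouse gave 0.061 to 0.37 for Irf1 and -0.50 to -0.21 for Irf8 in adipocyte against stromal medium, with 1 to 3 members past the threshold. Without mouse 3, Irf1 passed there (0.37, limma adjusted p = 0.0227). Of 1050 alternatives for list counts, 978 stayed within 1.5 times the count given. For the other changed results the cause was not tested. Depth limits no member, since each had at least 773 reads in every library.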
